A study of Mus musculus with 12 samples.

Results

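Integrins and the adhesion proteins that tie them to actin were examined in KP pancreatic tumours of mice that received FAKi, which blocks focal adhesion kinase (FAK), or vehicle. The set is defined by a list of gene names and not by measured values, and held 38 genes, of the 37006 for which the array carried probes. It comprised 26 integrin chains, of which 8 were β chains, and 12 adaptor genes, namely the talins, the kindlins, Ilk, the parvins, the PINCH genes Lims1 and Lims2, and Vcl. Every non-control probe whose name equalled one of these symbols was used, which gave 85 probes.

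FAKi tumours (n = 6) came from female C57BL/6 mice with orthotopic KP tumours that received the inhibitor by gavage at 50 mg/kg over 14 days. Vehicle tumours (n = 6) came from females of the same strain with the same kind of tumour, dosed with vehicle over the same 14 days, and the age is labelled as 8 weeks in both groups. The labels do not name the inhibitor, spell out KP or say which cells the tumours were grown from, and they number the tumours without saying that each came from its own animal, so p-values measure the spread between these samples. Total RNA was taken from whole tumour tissue, in which fewer cells of a type and less RNA per cell cannot be told apart.

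Integrins are surface receptors made of an α and a β chain, and the pairing sets which matrix protein or partner cell is bound. Talins and kindlins bind the cytoplasmic tails of β chains and switch integrins to their active state, and talin, vinculin and the complex of ILK, PINCH and parvin link them to actin. FAK is recruited to these adhesions and is activated there when integrins engage the matrix.

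Of the members' 60-base probes that span an exon junction, a selection is shown. Others, such as those of Fermt2 and Itgb6, are not printed. Positions are on mm9, the build named in the file headers (1 array's header named none). The Itgb1 pair is shown because the array separates the common β1 transcript from a probe that the files describe as the integrin β1D messenger, a splice form known from striated muscle. Both lie on the plus strand of chromosome 8, the common probe at chr8:131250081-131255976 and the β1D probe at chr8:131250931-131255949. Capitals mark the longest run that the pair shares, 23 bases.
Itgb1, common transcript: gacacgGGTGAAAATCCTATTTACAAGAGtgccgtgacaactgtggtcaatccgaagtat
Itgb1, β1D: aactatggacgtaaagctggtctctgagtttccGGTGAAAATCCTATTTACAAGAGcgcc

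The next probes belong to Itgae and Itga2b, the members of smallest unadjusted p, and to Lims1 and Fermt3, whose values across tumours stood out. Those of Itgae lie at chr11:72959105-72960563 and chr11:72945236-72946221 (plus strand), that of Itga2b at chr11:102319453-102319661 (minus), that of Lims1 at chr10:57881192-57884230 (plus) and that of Fermt3 at chr19:7074257-7076292 (minus).
Itgae, first: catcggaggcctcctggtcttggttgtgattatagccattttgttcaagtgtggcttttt
Itgae, second: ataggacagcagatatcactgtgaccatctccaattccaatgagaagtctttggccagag
Itga2b: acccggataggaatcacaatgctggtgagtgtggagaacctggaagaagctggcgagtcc
Lims1: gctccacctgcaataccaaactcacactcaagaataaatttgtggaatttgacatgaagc
Fermt3: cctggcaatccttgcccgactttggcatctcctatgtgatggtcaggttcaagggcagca

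Values are log2 signals relative to the 75th percentile of their own array, so a value of 0 lies at that percentile, and a difference is FAKi minus vehicle in log2 units. A gene counted as measured if 1 of its probes stood well above background on 6 or more of the 12 arrays, and its brightest such probe stood for it. By this filter 36 of the 38 genes and 70 of the 85 probes were measured. Itgad, the αD chain of leukocytes, was not well above background on any array with either of its probes. Itgb8, whose β8 chain pairs with αv, had 4 probes, and none of them was well above background on more than 5 arrays.

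The 75th percentile of the arrays lay between log2 12.84 and 13.43 in FAKi and between 11.84 and 13.90 in vehicle tumours. FAKi 6, vehicle 5 and vehicle 6 stood apart, with mean correlations across genes to the other arrays of 0.935, 0.931 and 0.918, against 0.944 to 0.958 for the other 9. All 7 epithelial and ductal, all 8 fibroblast and all 5 acinar markers were measured. So were all 5 skeletal muscle and all 4 B cell markers, so passing the filter does not identify the tissue. The mean level of the acinar markers was low, from -2.68 to -1.84 in FAKi and from -3.26 to -2.20 in vehicle tumours. That of the fibroblast markers ran from 2.55 to 3.45 in FAKi and from 2.15 to 3.95 in vehicle tumours. The mean level of the epithelial markers ran from 2.96 to 3.98 in FAKi and from 2.21 to 4.35 in vehicle tumours.

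The question was whether transcripts of this machinery differed between FAKi and vehicle tumours. No member passed limma's test at an adjusted p of 0.05, as none of the 27351 genes did (0 percent). Without adjustment, 2 of the 36 members had p under 0.05, against 4.79 percent of all genes. Itgae was lower and Itga2b was higher in FAKi tumours (2.05 and 2.74 percent of all genes in those directions). None of the 36 members had ranges that did not overlap between the groups, against 0.239 percent of genes with values on all arrays.

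Differences above 0 were seen for 17 members and below 0 for 19, with a median of -0.02 and a range from -1.59 for Itgb6 to 0.62 for Itgal. Over all genes 60.8 percent lay above 0 and the median was 0.09. The standard error of a member's difference had a median of 0.37, and 17 members differed by less than 0.25. Adjusted p in limma was 0.9995 or above for every member, and 0 of the 70 measured probes passed when all 40459 probes were fitted singly, with 2 at unadjusted p under 0.05 against 4.86 percent of all probes.

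**Figure D1:**
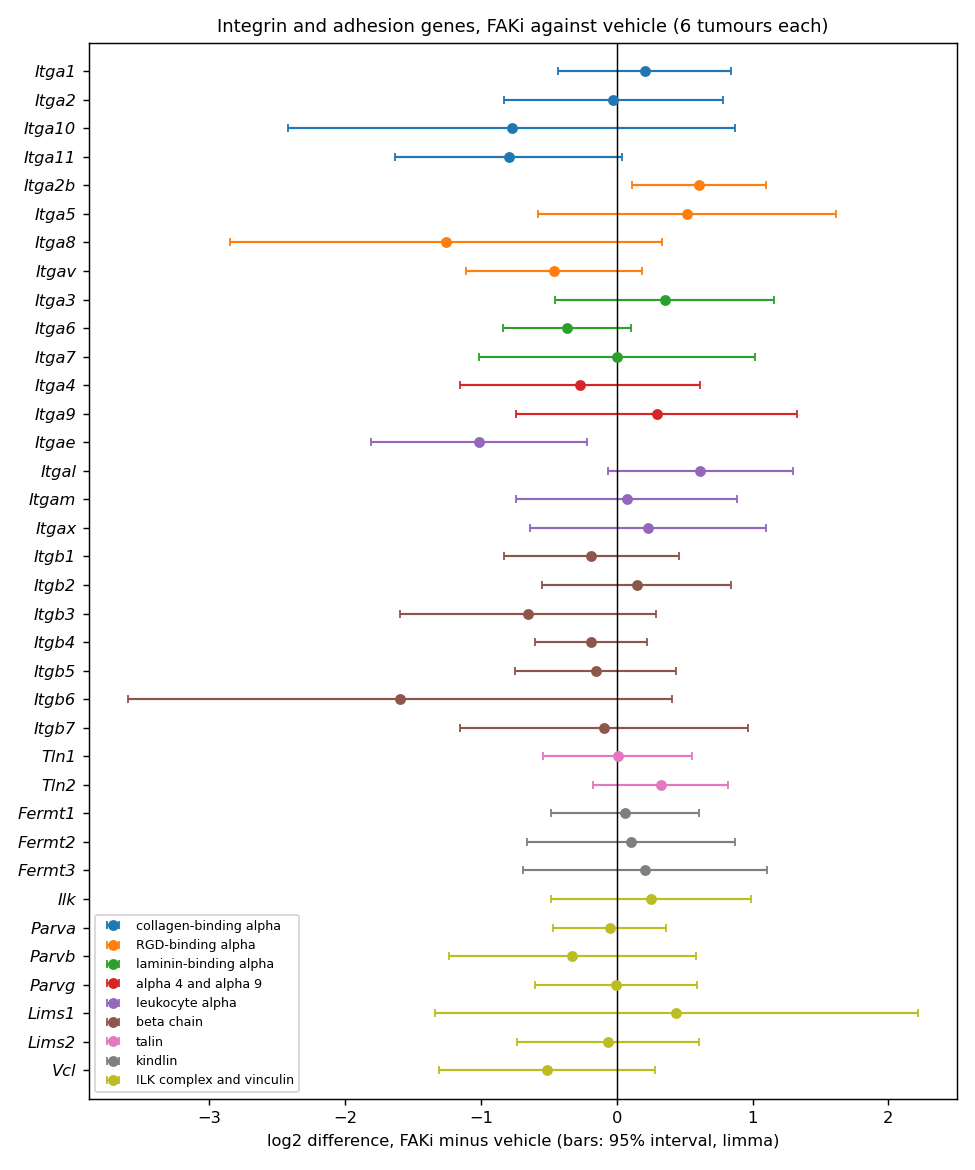
Log2 difference, FAKi minus vehicle, of the 36 measured members in order of role, with points for limma's estimate and bars for its 95% interval (6 tumours in each group). The intervals of Itgae and Itga2b leave out 0 before adjustment, and those of the other 34 cross it.

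Among the leukocyte chains, Itgae encodes αE (CD103), which pairs with β7 and binds E-cadherin on epithelial cells. Itgae had values of -2.94, -2.69, -4.32, -3.35, -1.79 and -3.30 in FAKi tumours 1 to 6, against -2.64, -2.27, -1.43, -1.63, -2.18 and -2.14 in vehicle tumours 1 to 6. FAKi 5 lay within the vehicle range, and the other 5 FAKi tumours lay below every vehicle tumour. The means were -3.07 ± 0.84 in FAKi and -2.05 ± 0.44 in vehicle tumours (SD, n = 6 each), a difference of -1.01 (SE 0.37), a ratio of 0.495, with a limma adjusted p of 0.9995 (unadjusted p = 0.0159). The second Itgae probe differed by -0.72 (SE 0.37) and ran alongside the first, with the same tumour lowest. With slide as a fixed block the Itgae difference was smaller, at -0.35. That block rests only on slides 1 and 4, where FAKi 5 and FAKi 1 were the only FAKi tumours. The Itgae difference was 0.02 within slide 1 and -0.73 within slide 4. With slide as a random block, which keeps all 12 arrays, it was -0.99. In what follows, slide as a block means the fixed block. T cell markers, 6 of 7 measured, ran from -1.01 to 1.49 in FAKi and from -0.75 to 0.49 in vehicle tumours and differed by 0.03 in the mean, and dendritic cell markers, 3 of 4 measured, differed by -0.45. Their part in the Itgae difference was not tested.

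Itgal, the αL chain of LFA-1 on leukocytes, ran from -1.17 to 0.70 with a median of -0.66 in FAKi tumours, and from -1.36 to -0.48 with a median of -1.10 in vehicle tumours. FAKi 2 and FAKi 5 lay above every vehicle tumour and the rest overlapped. The difference was 0.62 (SE 0.32, limma adjusted p = 0.9995), 1.05 with slide as a block, 1.80 within slide 1 and 0.29 within slide 4. Both other Itgal probes also lay above 0, by 0.24 and 0.30. Itgam, the αM chain of Mac-1 on myeloid cells, differed by 0.07 (SE 0.38), and Itgax, the αX chain used as a marker of dendritic cells, by 0.23 (SE 0.40).

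Of the integrins that recognise the RGD sequence, Itga2b encodes αIIb, which forms the fibrinogen receptor of platelets with β3. Itga2b had values of -3.79, -3.19, -3.56, -3.61, -4.001 and -4.35 in FAKi tumours 1 to 6, against -4.04, -4.59, -4.34, -4.47, -4.62 and -4.06 in vehicle tumours 1 to 6. FAKi 6 fell among the vehicle tumours, and the other 5 FAKi tumours lay above all of them. The means were -3.75 ± 0.40 in FAKi and -4.35 ± 0.26 in vehicle tumours (SD, n = 6 each), a difference of 0.60 (SE 0.23), a ratio of 1.52, with a limma adjusted p of 0.9995 (unadjusted p = 0.0203). With slide as a block the Itga2b difference was 0.51, and it was 0.48 within slide 1 and 0.53 within slide 4. Platelet and megakaryocyte markers, 6 of 7 measured, ran from -2.998 to -1.91 in FAKi and from -3.05 to -1.53 in vehicle tumours. Their correlation with Itga2b over the 12 tumours was r = -0.10 and rho = 0.06 (permutation p = 0.761 and 0.852).

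Itgav, whose αv chain pairs with several β chains, ran from 1.57 to 2.57 with a median of 2.17 in FAKi tumours, and from 1.99 to 3.79 with a median of 2.48 in vehicle tumours. All 6 FAKi tumours lay below the vehicle mean, which vehicle 5 raised. The Itgav difference was -0.46 (SE 0.30, limma adjusted p = 0.9995), and -0.22 without vehicle 5, vehicle 6 and FAKi 6. It was -0.81 with slide as a block, -0.98 within slide 1 and -0.65 within slide 4. The other 3 Itgav probes differed by -0.16, 0.01 and 0.12.

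Itga8, a mesenchymal chain that pairs with β1, was well above background in 3 of 6 FAKi and 5 of 6 vehicle tumours. It ran from -8.47 to -3.94 with a median of -6.57 in FAKi tumours, and from -7.29 to -4.08 with a median of -5.31 in vehicle tumours. The highest tumour of all was FAKi 1 and the lowest was FAKi 3. The Itga8 difference of -1.26 (SE 0.74, limma adjusted p = 0.9995) was -2.34 within slide 1 and 2.05 within slide 4. It was -0.15 with slide as a fixed block, which rests on those slides, and -1.20 with slide as a random block. It was -0.08 under the normexp correction of background and -1.95 when arrays were weighted. Itga5, the α chain of the main fibronectin receptor, ran from -1.50 to 2.17 in FAKi and from -0.34 to 0.83 in vehicle tumours, and its difference was 0.52 (SE 0.51) with all arrays and 0.98 without FAKi 6.

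**Figure D2:**
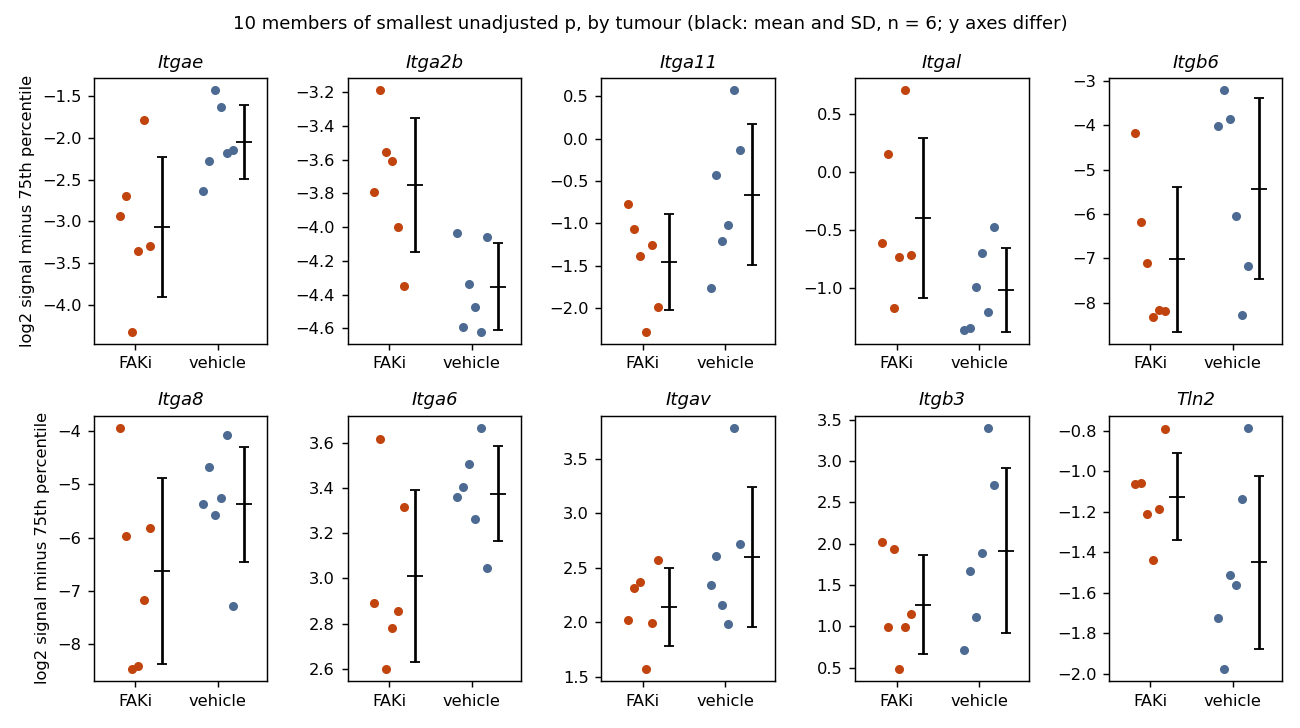
Values by tumour of the 10 members of smallest unadjusted p, as log2 signal relative to the array's 75th percentile, with FAKi tumours on the left and vehicle tumours on the right of each panel and black bars for mean and SD (n = 6). The groups overlap in every panel, by 1 FAKi tumour in Itgae and in Itga2b.

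Among the collagen receptors, Itga11 encodes α11, a β1 partner of fibroblasts. Itga11 ran from -2.28 to -0.77 with a median of -1.32 in FAKi tumours, and from -1.76 to 0.57 with a median of -0.73 in vehicle tumours. All 6 FAKi tumours lay below the vehicle mean, within a range that overlapped. The difference was -0.79 (SE 0.39, limma adjusted p = 0.9995), with -0.71 under a slide block, -0.94 within slide 1 and -0.48 within slide 4. It was -0.25 without vehicle 5, vehicle 6 and FAKi 6, and the second Itga11 probe differed by 0.02. Fibroblast markers differed by -0.01 in the mean. Itga10, a collagen receptor of cartilage, differed by -0.77 (SE 0.76), with vehicle 5 far above the rest at 0.60, and by -0.14 without vehicle 5. Itga1 and Itga2, the collagen receptors of many cell types, differed by 0.21 (SE 0.30) and -0.03 (SE 0.37).

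Of the laminin receptors, Itga6 encodes α6, which joins β4 in hemidesmosomes. Itga6 ran from 2.60 to 3.61 with a median of 2.87 in FAKi tumours, and from 3.05 to 3.67 with a median of 3.38 in vehicle tumours. Only FAKi 2 lay above the vehicle mean of 3.37. The Itga6 difference was -0.36 (SE 0.22, limma adjusted p = 0.9995), with -0.53 under a slide block, -0.73 within slide 1 and -0.33 within slide 4. The 5 Itga6 probes ranged from -0.62 to 0.42. Itga3, another laminin receptor chain, differed by 0.35 (SE 0.37) and Itga7, the laminin receptor chain of muscle, by 0.00 (SE 0.47). Of the α4 family, which binds VCAM-1 and fibronectin, Itga4 differed by -0.27 (SE 0.41) and Itga9 by 0.29 (SE 0.48).

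The β chains lay mostly below 0, 6 of the 7 measured, and none passed the test. Itgb1, Itgb5 and Itgb7 changed sign under several alternatives, and without FAKi 6, vehicle 5 and vehicle 6 they lay at 0.12, 0.12 and 0.32. Itgb6, the epithelial β6 chain that with αv activates latent TGF-β, had the largest difference of any member in the primary processing but was dim. It was well above background in 2 of 6 FAKi and 4 of 6 vehicle tumours. Itgb6 had values of -4.17, -6.18, -7.10, -8.32, -8.18 and -8.20 in FAKi tumours 1 to 6, against -4.01, -3.22, -3.87, -6.04, -8.27 and -7.18 in vehicle tumours 1 to 6. Vehicle 1, 2 and 3 were the highest, FAKi 1 came next, and vehicle 5 was among the lowest. The Itgb6 difference was -1.59 (SE 0.93, limma adjusted p = 0.9995), with -2.11 within slide 1 and 1.03 within slide 4. It was -0.54 with slide as a fixed block, which rests on those slides, and -1.56 with slide as a random block. It was -0.41 under the normexp correction, -2.63 with array weights and -2.51 without FAKi 6, vehicle 5 and vehicle 6. The second Itgb6 probe was well above background in 1 of 6 FAKi and 4 of 6 vehicle tumours.

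Itgb3, the partner of αIIb and αv, ran from 0.48 to 2.02 with a median of 1.07 in FAKi tumours, and from 0.72 to 3.40 with a median of 1.78 in vehicle tumours. Vehicle 5 and vehicle 6 were the highest, and the rest overlapped. The Itgb3 difference of -0.65 (SE 0.44, limma adjusted p = 0.9995) was -0.06 without those 2 tumours and FAKi 6. It was -0.72 with slide as a block, -1.26 within slide 1 and -0.17 within slide 4, and the second probe differed by 0.04.

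Itgb1, the β chain shared by most matrix receptors, ran from 3.98 to 4.79 with a median of 4.39 in FAKi tumours, and from 3.87 to 5.61 with a median of 4.37 in vehicle tumours. The FAKi range lay wholly inside the vehicle range. The difference was -0.19 (SE 0.30, limma adjusted p = 0.9995) for the brightest probe and -0.07 (SE 0.22) for the common probe printed above. With slide as a block the Itgb1 difference was -0.57, and it was -0.85 within slide 1 and -0.30 within slide 4. Itgb4, the hemidesmosome chain, differed by -0.19 (SE 0.19) and Itgb5, an αv partner, by -0.15 (SE 0.27). Itgb2, shared by the leukocyte integrins, differed by 0.15 (SE 0.32), and Itgb7, which pairs with α4 and αE, by -0.09 (SE 0.49).

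The β1D probe of Itgb1 was well above background in 4 FAKi and 2 vehicle tumours. It read -2.84 in FAKi 3, and between -8.43 and -5.17 in the other 5 FAKi tumours and between -7.85 and -4.95 in vehicle tumours. FAKi 3 was also the tumour with the highest skeletal muscle markers, whose mean of 5 genes was 4.84 there and between -4.46 and 1.36 elsewhere. Vehicle 6 was second in both. The second Itga7 probe was likewise highest in FAKi 3, at -1.11, but was lowest in vehicle 6, at -7.16. The brighter Itga7 probe was highest in vehicle 5, at 1.16, and next in FAKi 3, at 0.94. The common β1 probe lay between 3.10 and 3.78 in FAKi and between 3.14 and 4.24 in vehicle tumours, highest in vehicle 5 and next in FAKi 3, at 3.78, and vehicle 6, at 3.63. The part that pieces of muscle played in these values was not tested.

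**Figure D3:**
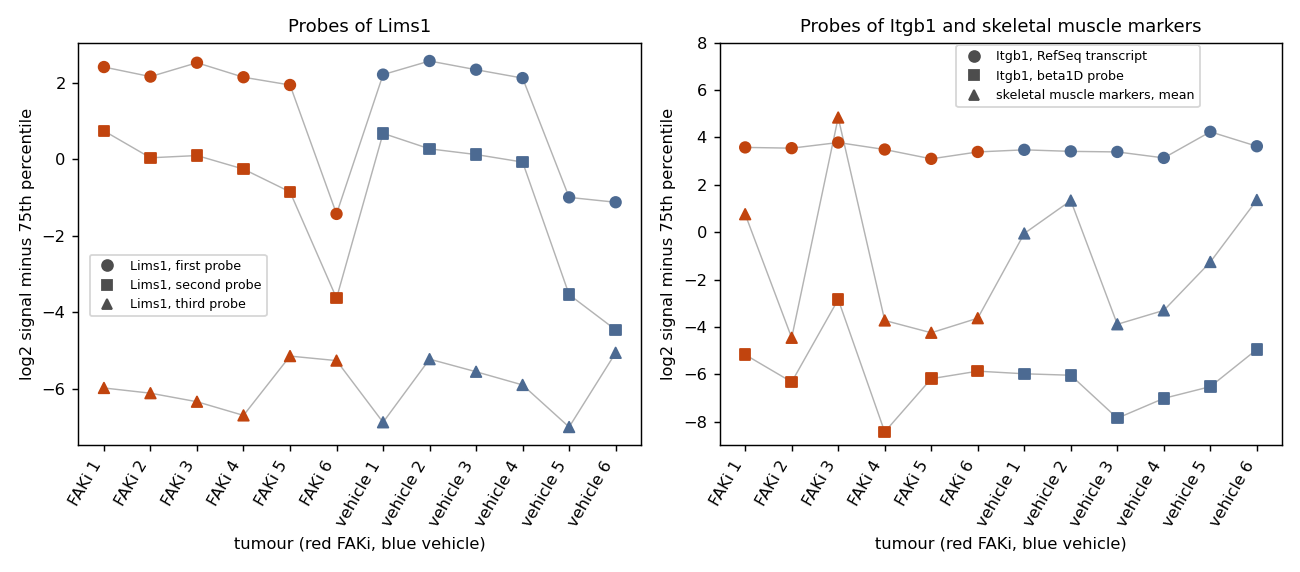
Log2 signal by tumour (FAKi red, vehicle blue) for the 3 Lims1 probes on the left, and for 2 Itgb1 probes with the mean of 5 skeletal muscle markers on the right. FAKi 6, vehicle 5 and vehicle 6 are low with both brighter Lims1 probes, and FAKi 3 is highest in the β1D probe and the muscle markers.

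Among the activators, both talins and all 3 kindlins lay above 0 and none passed the test, but only Tln2 kept its sign under every alternative. Tln1 lay below 0 with quantile normalisation, median centring, the authors' deposited table and a fixed slide block. Fermt1 did so with array weights, a fixed slide block and the 3 arrays left out. With certain single arrays left out, Tln1 and all 3 kindlins lay below 0. Within single slides Tln1, Fermt1 and Fermt2 each lay below 0 in 1 of the 2 slides that held both groups. Tln1, the talin of most tissues, ran from 2.84 to 3.65 with a median of 3.43 in FAKi tumours, and from 2.96 to 4.26 with a median of 3.22 in vehicle tumours. The groups overlapped throughout, and the difference was 0.01 (SE 0.26, limma adjusted p = 0.9995). Tln1 was -0.06 after quantile normalisation and -0.03 after median centring. A second, dimmer Tln1 probe differed by 0.87 (SE 0.57). Tln2, the talin prominent in muscle and brain, ran from -1.44 to -0.79 with a median of -1.12 in FAKi tumours, and from -1.98 to -0.79 with a median of -1.54 in vehicle tumours. All 6 FAKi tumours lay above the vehicle mean, and 4 vehicle tumours lay below all FAKi tumours. The Tln2 difference was 0.32 (SE 0.23, limma adjusted p = 0.9995), with 0.23 under a slide block, 0.14 within slide 1 and 0.32 within slide 4.

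Fermt2, the kindlin-2 of stroma and most solid tissues, ran from 0.28 to 2.81 with a median of 1.75 in FAKi tumours, and from 0.96 to 1.89 with a median of 1.68 in vehicle tumours. FAKi 3 was the highest and FAKi 6 the lowest of all. The Fermt2 difference was 0.10 (SE 0.36, limma adjusted p = 0.9995), 0.45 with slide as a block, -0.01 within slide 1 and 0.90 within slide 4. Fermt1, the kindlin of epithelia, differed by 0.06 (SE 0.25), and Fermt3, the kindlin of blood cells, by 0.21 (SE 0.42).

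Of the actin linkers, Ilk and Lims1 lay above 0, 2 of the 7, and Parvg joined them at 0.02 after quantile normalisation. Ilk, the scaffold of its complex, ran from 2.45 to 4.60 with a median of 4.004 in FAKi tumours, and from 2.72 to 4.002 with a median of 3.69 in vehicle tumours. FAKi 6 and vehicle 6 were the lowest. The Ilk difference was 0.25 (SE 0.34, limma adjusted p = 0.9995), 0.49 with slide as a block, 0.17 within slide 1 and 0.80 within slide 4. Vcl, which reinforces talin's hold on actin, ran from 0.40 to 2.27 with a median of 1.49 in FAKi tumours, and from 1.05 to 2.51 with a median of 1.78 in vehicle tumours. FAKi 4 and FAKi 5 lay below every vehicle tumour. The Vcl difference was -0.51 (SE 0.37, limma adjusted p = 0.9995), -0.54 with slide as a block, -1.37 within slide 1 and 0.29 within slide 4, and the second probe differed by -0.02. Parva, Parvb and Parvg, the parvins, differed by -0.05 (SE 0.19), -0.33 (SE 0.42) and -0.0047 (SE 0.28), and Lims2, the second PINCH gene, by -0.07 (SE 0.31).

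Lims1, which encodes PINCH-1, the adaptor that holds ILK in its complex, fell into separate levels that did not follow the groups. It read 2.41, 2.16, 2.53, 2.15, 1.94 and -1.43 in FAKi tumours 1 to 6, against 2.22, 2.57, 2.34, 2.12, -0.996 and -1.12 in vehicle tumours 1 to 6. FAKi 6, vehicle 5 and vehicle 6 were thus low and the other 9 tumours lay close together, with a gap of 2.94 between the sets. The second Lims1 probe gave the same split, at -3.63 in FAKi 6 and -3.54 and -4.46 in vehicle 5 and 6, with a gap of 2.69, and the dimmest Lims1 probe did not. These are the 3 arrays that stood apart over all genes. Of 27238 genes with values on all arrays, 44 were lower in these 3 by a gap over 2, and Lims1 had the tenth widest gap. The Lims1 difference was 0.44 (SE 0.83, limma adjusted p = 0.9995), and -0.08 without the 3 arrays.

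Vehicle 5 was the tumour in which most members peaked. It held the highest value of 12 of the 36 members, or 33.3 percent, while it held the highest value of 14.0 percent of all genes. These were Itga4, Itga6, Itga7, Itga10, Itga11, Itgav, Itgb1, Itgb3, Itgb5, Parvg, Tln1 and Vcl. Over all genes most peaks fell in vehicle 6, with 36.0 percent, which held the highest value of 3 members, or 8.33 percent. Itgb5 ran from 3.41 to 3.75 in FAKi tumours, against 3.37 to 3.52 in 5 vehicle tumours and 4.997 in vehicle 5. Vehicle 5 also had the lowest epithelial marker level of all tumours, 2.21, and the highest fibroblast and macrophage levels, 3.95 and 3.86, and their part in the members' values was not tested. FAKi 6 held the lowest value of 9 members, or 25.0 percent, against 7.17 percent of all genes, and FAKi 4 that of 8, or 22.2 percent, against 4.92 percent.

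**Figure D4:**
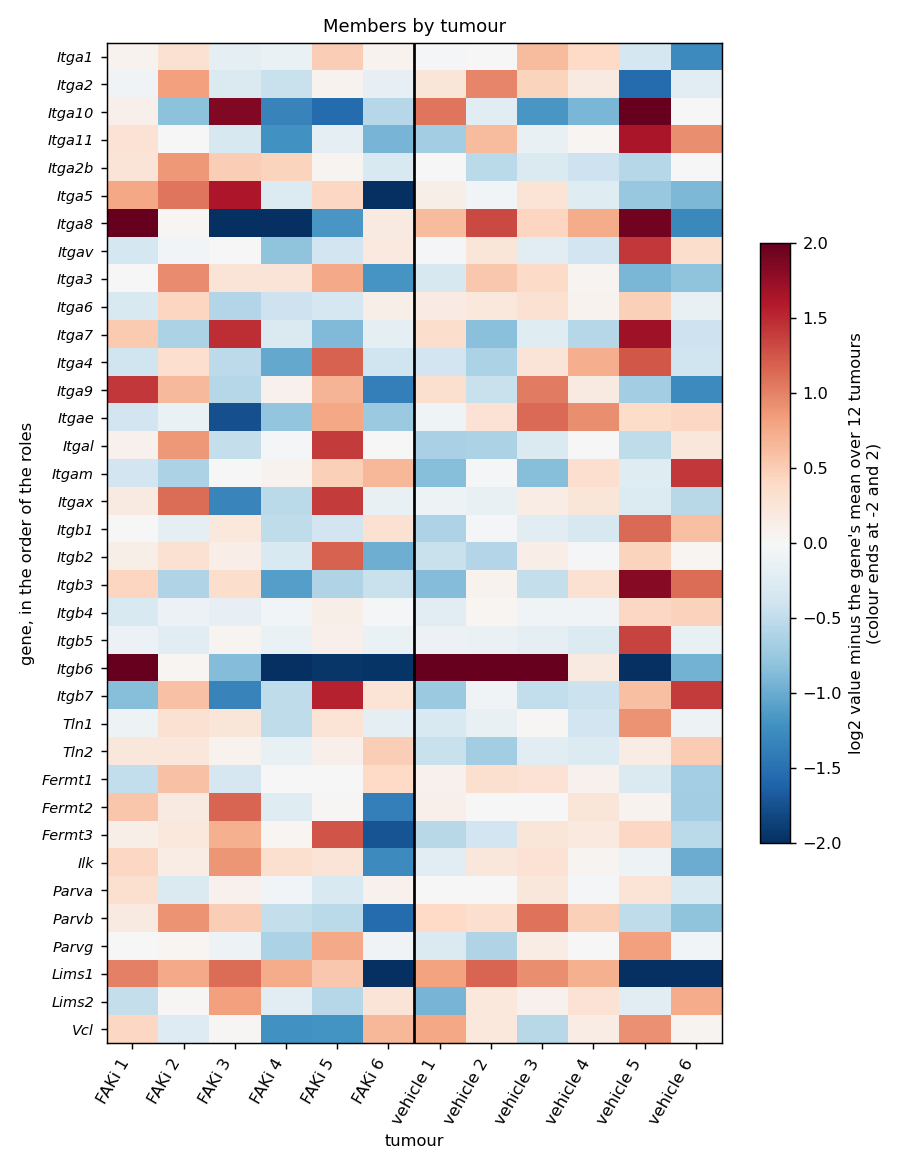
Values of the 36 measured members (rows, in order of role) in each tumour (columns, FAKi left of the line and vehicle right), as the log2 deviation from that gene's mean across the 12 tumours. Vehicle 5 holds the highest value of 12 members and FAKi 6 the lowest of 9, and no block of members separates the groups.

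How far members moved together was examined in 26 pairs, 13 of partner genes and 13 of a member with a marker list, over the 12 tumours, with p-values adjusted over the 26. By Pearson's r, 3 partner pairs and 6 marker pairs passed 0.05, and 3 pairs passed by both r and rho. Those 3 were Fermt3 with Itgb2, and the leukocyte markers with Fermt3 and with Itgb2. The 3 partner pairs include Ilk with Lims1, whose r is set aside because Lims1 fell into separate levels, which leaves 2. Slides held too few arrays for a correlation within them.

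Fermt3 and Itgb2, kindlin-3 and the β2 chain that it activates in leukocytes, gave r = 0.88 and rho = 0.88 (permutation p = 0.00049 and 0.000260, adjusted 0.00741 and 0.00676). Within the groups r was 0.91 in FAKi and 0.74 in vehicle tumours, with exact permutation p = 0.0181 and 0.117. Without FAKi 5 and FAKi 6, the farthest in Fermt3, r was 0.67 (permutation p = 0.0345), and without FAKi 6, vehicle 5 and vehicle 6 it was 0.91. Leukocyte markers, all 5 of them measured, gave r = 0.82 with Fermt3 and r = 0.78 with Itgb2, with rho of 0.81 and 0.84 (permutation p = 0.00057 and 0.00150 for r). Their level ran from 0.56 to 1.80 in FAKi and from 0.87 to 1.95 in vehicle tumours, and FAKi 6 was lowest in all of these measures. Without the 3 arrays that stood apart, r of the leukocyte markers was 0.65 with Fermt3 and 0.76 with Itgb2, and adjusted permutation p was 0.171 and 0.108.

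The α partners of β2 did not all follow it. Itgal with Itgb2 gave r = 0.62 and rho = 0.41 (permutation p = 0.0352 and 0.192, adjusted 0.0831 and 0.357), and r was 0.04 without FAKi 2 and FAKi 5. For this pair r was 0.87 without FAKi 6, vehicle 5 and vehicle 6 (adjusted permutation p = 0.0276). With median centring it was 0.68 (adjusted permutation p = 0.0369), so whether Itgal followed Itgb2 depended on the arrays and the processing. Leukocyte markers with Itgal gave r = 0.21, and Itgax with Itgb2 gave r = 0.49 (permutation p = 0.515 and 0.0995). For Itgax with Itgb2 r was -0.11 without FAKi 2 and FAKi 5. Itgam, the other main partner, gave r = -0.03 with Itgb2 and r = -0.45 with the leukocyte markers (permutation p = 0.928 and 0.140). The highest Itgam levels were those of vehicle 6, at 5.04, and FAKi 6, at 4.30, the tumours that with FAKi 4 had the lowest leukocyte marker levels. The second Itgam probe was highest in the same 2 tumours, at -1.73 and -2.16. Without the 3 arrays that stood apart, r of Itgam was 0.33 with Itgb2 and 0.07 with the leukocyte markers.

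T cell markers gave r = 0.70 with both Itgae and Itgb7, and rho of 0.73 and 0.60 (permutation p = 0.0121 and 0.0104 for r, adjusted 0.0350 each). By rho neither pair passed, with adjusted permutation p of 0.0614 and 0.163. Within the groups, r of the T cell markers with Itgae was 0.96 in FAKi and 0.83 in vehicle tumours, with exact permutation p = 0.00139 and 0.0417, and that with Itgb7 was 0.92 and 0.24, with exact permutation p = 0.00833 and 0.615. Without FAKi 3 and FAKi 5, the ends of the T cell scale, r was 0.58 with Itgae and 0.35 with Itgb7. The pair itself, Itgae with Itgb7, gave r = 0.87 in FAKi and -0.13 in vehicle tumours, and 0.47 over both (permutation p = 0.119), and the difference between the groups was not tested.

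**Figure D5:**
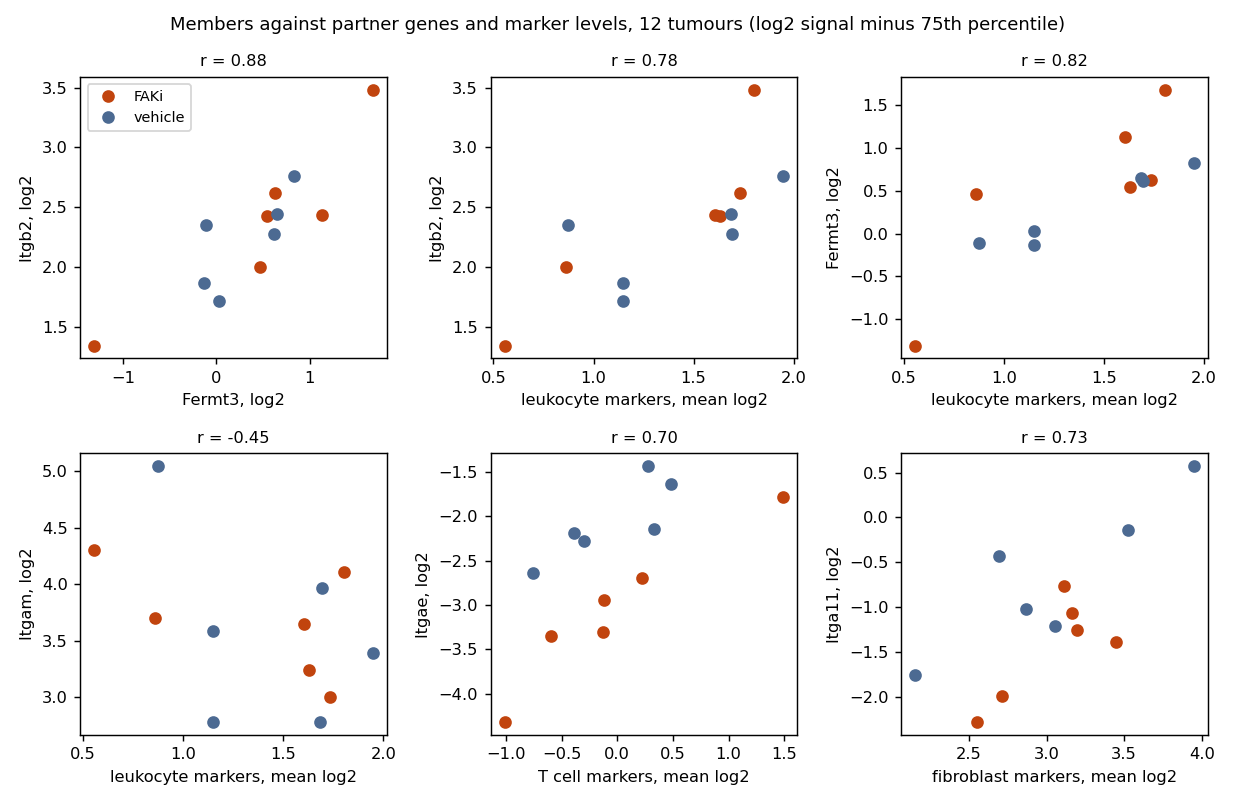
Member values against a partner gene or the mean of a marker list in 12 tumours (log2 signal relative to the 75th percentile, FAKi red and vehicle blue). Fermt3, Itgb2 and the leukocyte markers run together, Itgam does not follow them, and in the T cell panel most FAKi tumours lie below vehicle tumours.

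In the stroma, Itga11 gave r = 0.73 with the fibroblast markers and r = 0.72 with Itgb1, and rho of 0.57 and 0.56 (permutation p = 0.00767 and 0.00776 for r, adjusted 0.0336 each). By rho neither pair passed, with an adjusted permutation p of 0.183 each. Within the groups, r with Itgb1 was 0.12 in FAKi and 0.96 in vehicle tumours (exact permutation p = 0.808 and 0.00278), and r with the fibroblast markers was 0.77 and 0.88 (exact permutation p = 0.0847 and 0.0222). The difference between the groups was not tested. Both pooled values rest on few tumours: without the 2 farthest tumours r was 0.51 and 0.38. Leaving out the 3 arrays that stood apart gave r = 0.38 with the fibroblast markers and 0.61 with Itgb1 (adjusted permutation p = 0.515 and 0.171). Itga11 with Itgb1 also missed 0.05 after quantile normalisation and in the authors' deposited table (adjusted permutation p = 0.0606 and 0.0801). Itga3 gave r = 0.68 with the epithelial markers and rho = 0.64 (permutation p = 0.0121 and 0.0297, adjusted 0.0350 and 0.129), and r was 0.10 without the 3 arrays that stood apart. Itga2b with Itgb3 gave r = -0.40, Itgav with Itgb6 r = -0.16 and Itga6 with Itgb4 r = 0.22, and none of these passed in the primary processing (permutation p = 0.195, 0.662 and 0.492). Itga6 with Itgb4 depended on the normalisation, at r = 0.64 after quantile normalisation and 0.55 after median centring. In the authors' deposited table it was 0.73 and passed (adjusted permutation p = 0.0280). Epithelial markers with Itgb6 (r = 0.46) and fibroblast markers with Itgb5 (r = 0.63) did not pass in the primary processing either. The Itgb6 pair passed after quantile normalisation and in the deposited table, at r = 0.70 in each (adjusted permutation p = 0.0364 and 0.0317). The Itgb5 pair passed with median centring, at r = 0.76 (adjusted permutation p = 0.0249). Without the 3 arrays that stood apart r was 0.06 and 0.33. For Ilk with Lims1, r within the 9 tumours of the upper Lims1 level was 0.48 with an adjusted permutation p of 0.333.

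Among 21 members with more than 1 measured probe, the probes of 9 differed in the sign of the difference, among them Itgav, Itgb1, Itgb3, Itgb4 and Itga6. Probes of 1 gene lie at different sites and can report different transcript forms. Of 34 pairings of a gene's brightest probe with another of its probes, 11 had a correlation over 0.5 across tumours.

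Signalling partners at adhesions, a list of 41 genes around FAK, paxillin, the actin crosslinkers and the inside-out activators, were all measured. Differences of 21 lay above 0 and of 20 below, with a median of 0.02. None passed limma's adjusted test (0 percent of all genes), and 1 had an unadjusted p under 0.05, where 4.79 percent of all genes did. The 3 of smallest p were Ptk2b, Rap1b and Pxn. Ptk2b, which encodes the FAK relative Pyk2, differed by -0.42 (SE 0.19, limma adjusted p = 0.9995). Rap1b, a small GTPase that brings talin to integrins, differed by -0.35 (SE 0.19), and Pxn, the adaptor paxillin, by 0.47 (SE 0.28).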

How the data were processed

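Total RNA of 12 tumours was measured on one-colour Agilent arrays. The authors' intensity values came from Agilent Feature Extraction 11.5.1.1, which subtracted background and detrended each array, per the file headers. A deposited table of log2 values by the authors, of a normalisation not given in the sources used here, served as an alternative. Limma is named in the submitters' processing notes.

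Each array's 75th percentile was subtracted from its log2 processed signals, without 71 to 156 outlier spots per array. FAKi was compared with vehicle in limma 3.58.1 (R 4.3.3, lmFit and eBayes) over all 27351 genes, with Benjamini-Hochberg adjustment and a threshold of 0.05. The fit was also run on simulated data whose shifts were larger than any member's difference, so that run does not show how differences of the members' size would fare. For arrays, their number limits the precision. Correlations used 100000 permutations, or all 720 within a group. Marker levels are means of log2 values. All 38 members are accounted for. Tumour values are given for the 10 members of smallest unadjusted p and for Itgb1, Itgav, Tln1, Ilk, Vcl and Fermt2, and for others that were chosen after their values were seen. Members and lists were chosen with earlier results of these data known.

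The 5 slides, read from the array files, are numbered here. Slide 1 held FAKi 5 with vehicle 3 and 5, slide 4 held FAKi 1 with vehicle 2 and 6, slide 2 vehicle 1 and 4, slide 3 FAKi 2, 3 and 4, and slide 5 FAKi 6. Alternatives covered normalisation, background correction, filters, probes, weights, slide and replicate blocks, and left-out arrays. Slides 2, 3 and 5 held a single group, so a fixed slide block takes its difference only from slides 1 and 4. That difference is the mean of the values within slides 1 and 4, so it is not a separate check on them. A random slide block keeps all 12 arrays. Where the kind is not stated, a slide block is the fixed one. Leaving out FAKi 6, vehicle 5 and vehicle 6 together was added after the data had been seen.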

Additional observations from a re-analysis of the deposited data

Results flagged for a closer look

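Of 72 groups of 6 tumours (36 members in FAKi and in vehicle), 5 held a tumour that lay far from the others of its group by Dixon's ratio, and chance flags about 1 in 20 groups. Itgb5 was 4.9973 in vehicle 5, against 3.37 to 3.52 in the other vehicle tumours. Tln1 was 4.2565 in vehicle 5, against 2.96 to 3.37. Lims1 was -1.4279 in FAKi 6, against 1.94 to 2.53 in the other FAKi tumours, and Ilk was 2.4454 in FAKi 6, against 3.86 to 4.60. Fermt2 was 0.9621 in vehicle 6, against 1.64 to 1.89 in the other vehicle tumours. All of these tumours are among the 3 whose arrays stood apart over all genes.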

How the results depend on the processing

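No member, no member probe and no adhesion partner gene passed limma's adjusted threshold under any alternative. Adjusted p over the alternatives was lowest with array weights for Itgae, at 0.194, and for Itga2b, at 0.109. The count of members at unadjusted p under 0.05 was 2, and it was 7 with array weights (against 18.6 percent of all genes), 1 with normexp and 1 with slide as a fixed block (3.97 and 1.79 percent), and from 2 to 5 with 1 array left out, where it was 5 without FAKi 1 and 5 without vehicle 6 (against 6.34 and 13.9 percent of all genes). The count of all genes past the adjusted threshold was 1 with normexp, 2 with array weights and from 0 to 3 with 1 array left out, with 3 without FAKi 1. Of the adhesion partners, 0 had unadjusted p under 0.05 with median centring, no filter, the mean of a gene's probes, a fixed slide block or a replicate block (1.79 to 6.09 percent of all genes). With a random slide block 1 did (4.49 percent). The count was 7 with array weights (18.6 percent), 3 without the 3 arrays that stood apart (17.8 percent), and from 0 to 2 with 1 array left out. Deviations of same-numbered tumours correlated by more than 0.1 for 3 of the 6 numbers (range -0.12 to 0.48), and the labels tie no number to a shared source, so the numbers were not taken as pairs. A fit with replicate number as a block had 0 members past the threshold and 3 at unadjusted p under 0.05, Itgb6 with Itgae and Itga2b, against 6.09 percent of all genes. Partner pairs past the threshold, Ilk with Lims1 included, numbered 2 to 4 and marker pairs 2 to 6 with 1 array left out, and marker pairs numbered 0 without the 3 arrays, where 9 tumours remained. The difference kept its sign in 18 members throughout the fitted alternatives and changed it in 18. Sign changes in log2 difference were Parvg 0.015 and Tln1 -0.058 with quantile normalisation, Parvg 0.0084 with normexp, Itga7 -0.034 and Tln1 -0.027 with median centring, Parvg 0.014 and Tln1 -0.042 in the authors' deposited table, and Itga1 -0.043 and Itgb1 0.11 when a gene's probes were averaged. Weighting the arrays gave Fermt1 -0.17, Itga1 -0.038, Itgb5 0.019, Itgb7 0.11 and Parvg 0.16. A fixed slide block gave Fermt1 -0.15, Itga2 0.082, Itga4 0.27, Itga7 -0.23, Itgam -0.028, Parvg 0.30 and Tln1 -0.081, and a random one gave Itga7 -0.0088 and Parvg 0.0088. Without the 3 arrays the values were Fermt1 -0.24, Itga1 -0.14, Itgb1 0.12, Itgb5 0.12, Itgb7 0.32, Lims1 -0.075 and Parvg 0.20. In correlations, r of Itgam with Itgb2 became 0.0025 with median centring and 0.33 without the 3 arrays, and r of Itgav with Itgb6 became 0.012 with normexp and 0.61 without them. Platelet markers with Itga2b gave r = 0.27 with normexp and 0.061 with the filter on all 12 arrays. Without the 3 arrays r of Itga5 with Itgb1 went from -0.36 to 0.68, and that of epithelial markers with Itgb4 from -0.42 to 0.68. Neither passed without them (adjusted permutation p = 0.140 each). For leukocyte markers with Itgam r went from -0.45 to 0.068, and for fibroblast markers with Itga8 from 0.0075 to -0.22. With 1 array left out, differences that changed sign ran from -0.067 to 0.17 (Fermt1), -0.12 to 0.39 (Fermt2), -0.022 to 0.58 (Fermt3), -0.027 to 0.35 (Itga1), -0.34 to 0.17 (Itga2), -0.29 to 0.34 (Itga7), -0.090 to 0.36 (Itgam), -0.027 to 0.52 (Itgax), -0.33 to 0.020 (Itgb1), -0.072 to 0.36 (Itgb2), -0.22 to 0.10 (Itgb5), -0.41 to 0.18 (Itgb7), -0.024 to 1.05 (Lims1), -0.26 to 0.078 (Lims2), -0.12 to 0.0030 (Parva), -0.16 to 0.16 (Parvg) and -0.069 to 0.19 (Tln1). Correlations that did so ran from -0.25 to 0.19 (Itgam with Itgb2), -0.029 to 0.39 (Itga6 with Itgb4), -0.37 to 0.20 (Itgav with Itgb6), -0.040 to 0.38 (Ilk with Parva), -0.33 to 0.21 (platelet markers with Itga2b), -0.50 to 0.0019 (epithelial markers with Itgb4) and -0.31 to 0.17 (fibroblast markers with Itga8). The cause of these changes was not tested. Itgb6 and Itga8 were dim, above background on 6 and 8 of the 12 arrays.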
